A study of Drosophila melanogaster with 2 samples.

Results

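Peaks of Atf6-eGFP whose summits lay inside an annotated exon, away from protein-coding promoters, numbered 311 of the 5846 peaks called from both replicates together (5.32%). A summit, the point of highest signal that the authors gave for each peak, qualified when it was over 500 bp from every protein-coding transcription start site (TSS) and inside a coding, untranslated or noncoding RNA exon of any gene. The rule used position alone, and not the signal, the replicates' own lists or the bases at the summits. A summit inside several kinds of exon was counted once, as 5′ untranslated region (5′ UTR), coding, 3′ UTR or noncoding, in that order, which touched 8 summits. The 311 summits lay in the exons of 265 different genes or sets of overlapping genes.

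The libraries came from chromatin immunoprecipitation with an anti-GFP antibody from whole Drosophila melanogaster embryos of the strain Atf6-GFP, collected at 0 to 24 h and sheared by sonication. They form 1 group of 2 biological replicates, both carrying the Atf6-eGFP transgene, with no group of another genotype, treatment or age, so no condition could be compared. All embryonic tissues were mixed, and the list does not say in which cells a region was bound. The peaks rest on a tagged protein from a transgene, the control library was not analysed here, and read depth is unknown because the lists hold scores and no counts. Signal below is the authors' score, whose scale is not stated. It orders peaks within a list and is not comparable between the lists of the replicates, which were made separately.

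Atf6, a transcription factor of the basic leucine zipper family, is first made as a membrane protein of the endoplasmic reticulum (ER). When unfolded proteins gather in the ER it moves to the Golgi, is cut there by proteases, and its freed part enters the nucleus and binds DNA at genes of chaperones and of protein quality control. Coding exons carry the protein sequence, untranslated exons flank it in the mRNA, and noncoding exons belong to long noncoding RNAs (lncRNAs) and to the small RNAs of splicing and translation. A long noncoding gene can also be the precursor transcript from which a microRNA is cut.

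The sequences at the strongest summits show the range of base composition among these peaks. Each is 30 bases of the genome strand from the dm6 assembly, with the summit at base 16, and capitals mark any of the 16 searched words given further below. The first set holds summits in lncRNA exons, all of them rich in A and T, with 20 to 26.7% G or C.
lncRNA:Vinr, chrX:12751379-12751408: tctcacttgtgtaacaatattttaatttca
lncRNA:CR44619, chrX:12752348-12752377: gattatcgaaatttgaagaaaatacaaaaa
lncRNA:CR31840, chr2L:14024066-14024095: tatgtacagagtacacatgttatttgattt
lncRNA:CR46035, chr3R:17704390-17704419: taaattattgtttctgatcaagtcactcat
The next set shows the strongest summits in 3′ UTRs and 5′ UTRs, from 16.7% G or C at baz to 43.3% at CG7872.
Cals, 3′ UTR, chr4:1113321-1113350: aactgctgcaatatgctttgttttattgtt
CG7872, 3′ UTR, chrX:15579793-15579822: ccacattcgcgtgtttcctaactaacttga
baz, 5′ UTR, chrX:17178681-17178710: cattgttaatttagttatgtttttgtatat
cic, 5′ UTR, chr3R:20253333-20253362: tttttgctttgcttactccttttccccgat
Strong summits in coding exons held more G and C, with 73.3% at Pde1c and 46.7% at l(3)mbn.
Pde1c, coding, chr2L:11816577-11816606: gccggctccgCAGCTGgctcactctgctcg
l(3)mbn, coding, chr3L:6124800-6124829: cacttacagggtacatttccggttggtgta
Stt3A, coding, chrX:21053207-21053236: gaacaagcgtgtggcaaatgctgtccagaa
Among the genes of small nuclear RNAs, the summits at 7SKa and U1:95Ca, shown here, had 63.3% and 50%, and the others ran from 30% at U5:63BC to 56.7% at U4:39B.
snRNA:7SKa, chr3R:7474730-7474759: tacggcttccggtcgagaccagaatccgcg
snRNA:U1:95Ca, chr3R:23859528-23859557: aggaataatcgcagaggtcaactcagccga

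Exons of noncoding RNA genes and untranslated exons held most of these peaks, and coding exons held fewer than their share of ranked exon regions. Of the 311 summits, 112 lay in noncoding exons (36.0%, 95% Wilson interval 30.9 to 41.5), 79 in 3′ UTRs (25.4%, 20.9 to 30.5), 77 in coding exons (24.8%, 20.3 to 29.8) and 43 in 5′ UTRs (13.8%, 10.4 to 18.1). They were set against 31537 regions of the authors' long ranked list that met the same rule on position and were not in the peak list. Of these regions 19 reached the lowest IDR score of the list, the authors' score of reproducibility, so the contrast is mainly with weaker regions. Of those regions 78.8% lay in coding exons, so coding exons were under-represented among the peaks (two-sided Fisher exact test, odds ratio 0.0887, with a 95% interval of 0.0676 to 0.115, adjusted exact p = 4.35e-90). Noncoding exons held 5.38% of them and were over-represented among the peaks (odds ratio 9.89, 7.74 to 12.6, adjusted exact p = 3.70e-59), as were 5′ UTRs (3.97%, odds ratio 3.88, adjusted exact p = 3.39e-12) and 3′ UTRs (11.9%, odds ratio 2.52, adjusted exact p = 9.81e-11). Shares of the 4 types add up to the whole, so a low coding share raises the others. Taken without that constraint, the peak list took in 5.54% of all ranked regions and 0.977% of ranked regions of the exon class. By type it took in 0.309% of ranked regions in coding exons, 2.06% in 3′ UTRs, 3.32% in 5′ UTRs and 6.19% in noncoding exons, beside 5.45% in introns, 4.4% in intergenic sequence and 14.5% at promoters. The share for noncoding exons therefore lay beside that for introns, and the 3 types of exon of protein-coding genes lay below it. Regions that lie close together are not independent, and the tests treat each as 1 observation. With 1 region for each host gene set, an alternative added after seeing the data, the directions and calls for all 4 types were kept. The 5′ UTR difference was lost where promoters were taken out to 1000 bp (odds ratio 1.38, adjusted exact p = 0.395), and 35 of the 43 summits in 5′ UTRs lay within 1000 bp of a protein-coding TSS.

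Signal also differed by exon type. The median signal was 96.6 in noncoding exons (2.71 to 1520), 93.9 in 5′ UTRs (5.02 to 274), 86.7 in 3′ UTRs (2.12 to 441) and 69.4 in coding exons (6.40 to 332). Introns had a median of 100.1 and intergenic sequence one of 96.5. Peaks above the median of the whole list, 101.8, made up 54 of 112 in noncoding exons (48.2%), the same as the 47.8% of intron and intergenic peaks to within 1 percentage point (odds ratio 1.02, 0.683 to 1.51, adjusted exact p = 1). In coding exons 6 of 77 exceeded it (7.79%, odds ratio 0.0923, 0.0327 to 0.212, adjusted exact p = 2.57e-13), in 3′ UTRs 25 of 79 (31.6%, odds ratio 0.505, 0.300 to 0.832, adjusted exact p = 0.0116) and in 5′ UTRs 18 of 43 (41.9%, odds ratio 0.786, 0.402 to 1.51, adjusted exact p = 0.597). These tests by type were added after seeing the data. Over all exon peaks the share was 33.1% (odds ratio 0.541, 0.418 to 0.696, adjusted exact p = 7.96e-07). Without coding exons it was 97 of 234 (41.5%, odds ratio 0.773, 0.583 to 1.02, adjusted exact p = 0.0659, added after seeing the data), which did not pass the test. The list of replicate 1 alone, with its own median, gave no such difference (odds ratio 0.941, adjusted exact p = 0.742), and that of replicate 2 alone gave 0.697 (adjusted exact p = 0.0428).

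**Figure D1:**
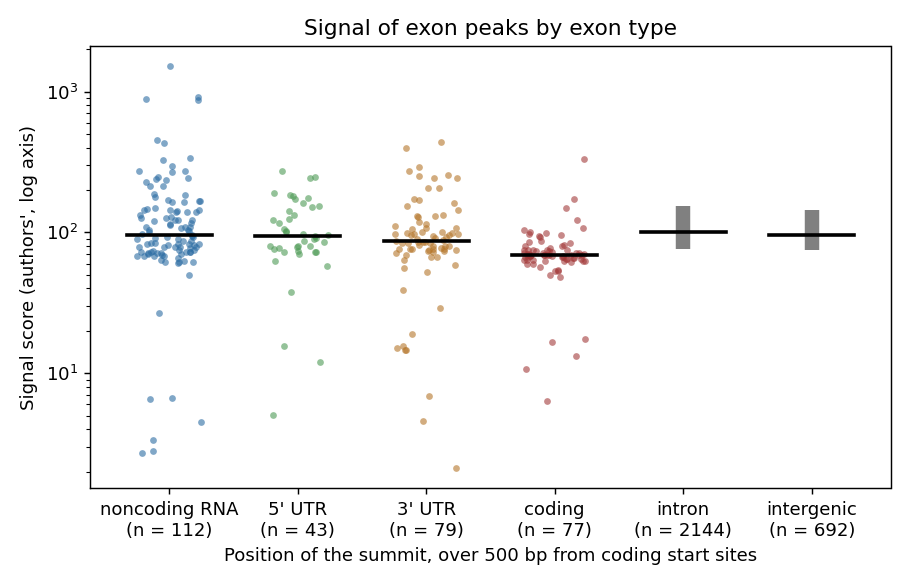
Signal score (log axis) of each of the 311 exon peaks as a point, by exon type, with a black line at the median; for intron and intergenic peaks the grey bar spans the quartiles. Points in coding exons crowd around their median of 69.4, noncoding exons reach 1520, and 26 points lie below a signal of 40.

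Noncoding exons held the strongest peaks of the exon class. Of the 15 strongest exon peaks 10 lay in noncoding exons, 4 in 3′ UTRs and 1 in a coding exon, and the 4 exon peaks among the top 100 of the whole list were all noncoding. The strongest, ranked 8 in the list, lay in lncRNA:Vinr (X 12751181 to 12751596) with a signal of 1520. Its own signals were 836 in replicate 1 and 670.3 in replicate 2, and both replicates' own lists held it. The Vinr summit lay 1500 bp from the start of Vinr and 473 bp from that of lncRNA:CR44619, a gene that overlaps Vinr on the same strand. lncRNA:CR44619 had peaks of 921 and 454, the first 969 bp from the Vinr summit. Its stronger peak scored 482 in replicate 1 and 439 in replicate 2. lncRNA:CR31840 on chromosome arm 2L followed with 886 (448 and 439 in replicates 1 and 2), and lncRNA:CR46035 on 3R with 874 (499 and 384). All 4 were in both replicates' own lists. Further lncRNA exons among the 15 strongest belonged to CR45997 (433), CR45325 (336), CR44363 (327), CR44810 (298) and CR46265 (275). All 5 were in both replicates' own lists.

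Of the 112 noncoding summits 91 lay in genes named lncRNA, 7 in antisense RNA genes, 6 in genes of small nuclear RNA, 2 in those of small nucleolar RNA, 2 in those of transfer RNA and 4 in other noncoding genes. The median distance from the nearest protein-coding TSS was 3081 bp. The start of the host noncoding gene lay within 500 bp of 49 summits, and the median distance from it was 577.5 bp. A start of any noncoding gene lay within 500 bp of 61 of the 112 (54.5%), against 52.3% of the other ranked regions in noncoding exons (odds ratio 1.09, 0.731 to 1.64, two-sided Fisher exact p = 0.696, a test added after seeing the data). Over the whole exon class the same measure was 66 of 311 (21.2%) against 1388 of 31537 (odds ratio 5.85, 4.37 to 7.75, adjusted exact p = 1.47e-25), so that difference was not seen among noncoding exons themselves.

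Small nuclear RNA genes make the RNAs of the spliceosome and the 7SK regulator of the elongation kinase P-TEFb. Exon peaks under the rule lay in 6 of 32 of them (18.8%), beside 2.43% of genes of the ncRNA type and 1.32% of protein-coding genes. The rule leaves out the starts of protein-coding genes and keeps those of noncoding genes, so these shares are not like for like. The ncRNA type also counts microRNA genes and separate short entries nested within them. Of 1945 lncRNA genes 67 had an exon peak. The summits at 7SKa, U1:95Ca, U5:63BC and U2:34ABb lay 251, 87, 34 and 56 bp from the start of their gene. The 7SKa peak had the highest signal at 214, with 87.5 in replicate 1 and 113 in replicate 2. U1:95Ca had 171 (64.2 and 106), U5:63BC 140.2 and U2:34ABb 101, followed by U4:39B at 78.2 and U1:82Eb at 62.6. The peaks at 7SKa, U1:95Ca, U5:63BC and U4:39B were in both replicates' lists, that at U2:34ABb in replicate 2 alone and that at U1:82Eb in replicate 1 alone. A further listed summit lay 201 bp from the summit at U2:34ABb, so the same replicate peak may support both. Near-identical copies of U1 and U2 genes exist, and how the authors placed reads that match several copies is not given in the sources used here. Transfer RNA genes had exon peaks at 2 of 290, tRNA:Gly-GCC-1-3 (81.7) and tRNA:Ser-CGA-1-4 (75.1), both in neither replicate's list. Small nucleolar RNA genes had 2 of 269, with 123 at Psi18S-176, found in both lists, and 26.8 at Me18S-C1366, found in replicate 2. A further listed summit lay within 400 bp of that at Me18S-C1366, so the same replicate peak may support both. Ribosomal RNA genes had none of 99 and pseudogenes none of 330. Peaks of these RNA genes that lie within 500 bp of a protein-coding TSS fall outside the rule and were not counted.

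Several lncRNA genes with exon peaks are hosts of microRNA genes. Of 1945 annotated lncRNA genes 67 had an exon peak, and of the 34 that enclose a microRNA gene on the same strand 10 did. Hosts of microRNAs were longer, with a median of 6116.5 bp against 663 bp for all lncRNA genes, and the part of length in this count was not tested. lncRNA:CR43334 (3L 628435 to 643900), whose far part encloses mir-ban, the growth-promoting bantam microRNA, had 9 exon peaks, more than any other gene. Their signals ran from 65.6 to 215 with a median of 114, and 3 were in both replicates' lists and 2 in neither. The highest had 131 in replicate 1 and 85.8 in replicate 2. lncRNA:CR43650, which encloses mir-8, a member of the conserved miR-200 family, had 3 exon peaks, the strongest at 244 (122 and 124 in the replicates). The weakest had 6.57, and a further listed summit lay 214 bp from the strongest. Whether the 3 are separate sites was not tested. Single or paired peaks lay in the hosts of mir-282 (235), mir-375 (164), mir-275 (144), mir-277 and mir-34 (128), mir-bft (109), mir-958 (104), mir-276a (83.4) and mir-1000 (67.8), given as the strongest peak in each. Summits in the annotated microRNA genes themselves were 2 of 260 genes, mir-4962 (122) and mir-4974 (93.5).

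Peaks in 3′ UTRs, the second type by number, lay in the last exon in 77 of 79. The nearest protein-coding TSS was that of the host gene for 41 and that of another gene for the rest, and 14 were within 1000 bp of it. The strongest lay in Cals (4 1113192 to 1113460), which encodes a calsyntenin, a cadherin-like neuronal membrane protein. Its signal was 441, with 269 in replicate 1 and 169.95 in replicate 2, and it was the only exon peak on chromosome 4. CG7872 followed with 399.7 (211 and 189), stas with 293 (181 and 111), CG8206 with 275 (141 and 138) and APC7, a subunit of the anaphase-promoting complex, with 258 (134 and 119.6). All 5 were in both replicates' lists, and all but Cals lay on the X. The APC7 summit was 576 bp from a TSS of another gene.

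Peaks in 5′ UTRs lay mostly in the leader of the gene whose start was nearest, in 42 of 43, at a median of 780 bp from a TSS. The strongest was in baz, which encodes the cell polarity protein Par-3, at X 17178588 to 17178756 and 18690 bp from the nearest TSS. It scored 274, with 151 in replicate 1 and 121 in replicate 2, and baz had a second exon peak of 152. The next were cic (248, with 138 and 114), a repressor in receptor tyrosine kinase signalling, and Raf (243, with 143 and 98.2), a kinase of the same pathway. eas, an ethanolamine kinase gene, had 189 (109 and 81.8), and dos, which encodes an adaptor of receptor tyrosine kinases, had 185 (126 and 63.0). All 5 of these peaks were in both replicates' own lists. Another 5′ UTR peak lay in SREBP, 665 bp from a TSS, with a signal of 100.04 (43.3 and 32.7) and support in both lists. A further listed summit lay 202 bp from it, so the same replicate peak may support both.

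Coding-exon peaks were weaker, with a few exceptions. The strongest was in otp, which encodes a homeodomain protein, at 332, with 177 in replicate 1 and 159 in replicate 2. Pde1c, a calmodulin-dependent phosphodiesterase gene, followed with 173 (118 and 59.0), and l(3)mbn with 149 (78.8 and 59.6). These 3 were in both replicates' lists, while Stt3A (122.5), the catalytic subunit of the ER oligosaccharyltransferase, and bif (107), a cytoskeletal regulator, were in that of replicate 1 alone. hth, which encodes a homeodomain cofactor, had 105 (67.5 and 29.2) and support in both lists. A further listed summit lay 243 bp from it, so the same replicate peak may support both. Most coding-exon signals were lower, and the quartiles of the 77 were 64.1 and 75.6. lola, which encodes a family of zinc finger factors, had 3 coding-exon peaks of 71.2 to 75.6, all in neither replicate's list. Glut4EF had 3 exon peaks, in coding and 3′ UTR exons together, with signals of 14.7 to 84.8. Utx had 2 coding-exon peaks, of 13.3 and 69.6, both in neither list.

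Coding-exon peaks stood apart in replicate support. Each peak was scored by whether it overlapped, by at least 1 bp, a peak in each replicate's own thresholded list. A single replicate peak can overlap several listed peaks, and such a peak entered the support of 44 of the 207 exon peaks found in at least 1 list. The same held for 15 of the 80 exon peaks in both lists, among them 2 of the 5 in coding exons. Of 77 coding-exon peaks 5 were in both lists (6.49%, Wilson interval 2.81 to 14.3), 9 in replicate 1 alone, 11 in replicate 2 alone and 52 in neither (67.5%, 56.5 to 76.9). Among the other 234 exon peaks 22.2% were in neither list (odds ratio 7.22, 3.98 to 13.4, two-sided Fisher exact test, adjusted exact p = 8.96e-12). The share in neither list was 20.5% in noncoding exons, 20.9% in 5′ UTRs and 25.3% in 3′ UTRs, near the 20.1% of introns, 21.4% of intergenic peaks and 19.2% of promoter peaks. Noncoding-exon peaks were in both lists more often than the other exon peaks (36.6% against 19.6%, odds ratio 2.36, 1.36 to 4.12, adjusted exact p = 0.00241). Those other peaks include the coding ones, and against UTR peaks alone the difference did not pass the test (36.6% against 27.9%, odds ratio 1.49, 0.830 to 2.70, adjusted exact p = 0.490). Against intron and intergenic peaks, at 39.8%, it did not pass either (odds ratio 0.872, 0.574 to 1.31, adjusted exact p = 0.637). For 3′ UTRs (26.6% against 25.4%, odds ratio 1.06, 0.562 to 1.95) and 5′ UTRs (30.2% against 25%, odds ratio 1.30, 0.586 to 2.75) no difference in this share passed the test. Because coding-exon peaks were weaker, they were also compared with intron and intergenic peaks of signal 50 to 80. There 43 of 52 coding-exon peaks were in neither list (82.7%) against 59.1% of 658 others (odds ratio 3.30, 1.55 to 7.83, adjusted exact p = 0.000904). In that band 0 of 52 were in both lists, against 12 of 658 (1.82%, odds ratio 0 with an interval up to 4.62, adjusted exact p = 1), so the low share in both lists was not shown to differ at like signal. Against the 63 other exon peaks of that band, 50.8% of which were in neither list, the odds ratio was 4.57 (1.81 to 12.5, adjusted exact p = 0.000904). These comparisons by type and by band were added after seeing the data.

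**Figure D2:**
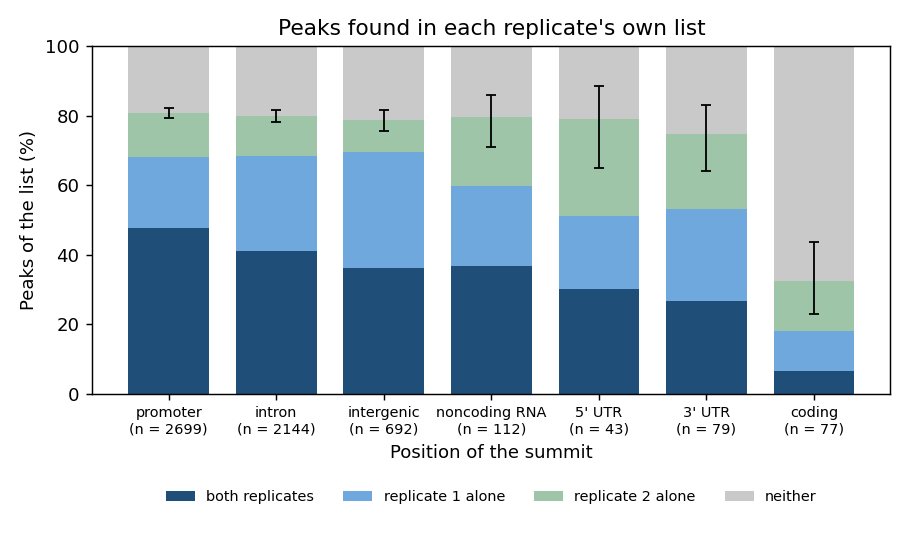
Share of peaks in percent (vertical axis) by the position of the summit, split into peaks found in both replicates' own lists, in 1 of them or in neither; error bars are 95% Wilson intervals of the share in neither. The grey part is 67.5% in coding exons and between 19.2 and 25.3% in the other classes.

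Over all exon types, 80 of 311 peaks were in both replicates' lists (25.7%), against 39.8% of 2836 intron and intergenic peaks (odds ratio 0.523, 0.396 to 0.685, adjusted exact p = 7.96e-07). Without coding exons the share was 32.1% (odds ratio 0.712, 0.528 to 0.953, adjusted exact p = 0.0427, added after seeing the data). Of 159 exon peaks chosen by the same rule from replicate 1's own list, 48.4% were also in that of replicate 2, against 51.5% of intron and intergenic peaks (odds ratio 0.884, adjusted exact p = 0.742). Of 156 chosen from that of replicate 2, 49.4% were also in that of replicate 1, against 74.8% (odds ratio 0.328, adjusted exact p = 2.41e-10). The long ranked lists, which hold weak regions too, covered 299 of the 311 summits in each replicate. The median signals in replicates 1 and 2 were 53.3 and 55.4 for noncoding exons, 46.5 and 46.3 for 5′ UTRs, 44.6 and 44.9 for 3′ UTRs, and 34.9 and 37.2 for coding exons, so the order of the types was the same in both.

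**Figure D3:**
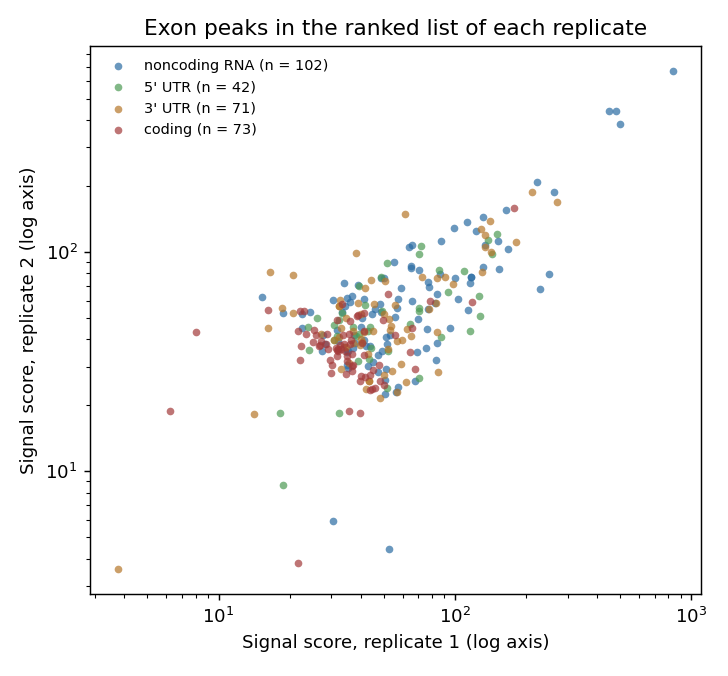
Signal score of exon peaks in the ranked list of replicate 1 (horizontal) and replicate 2 (vertical), both on log axes, for summits covered by both, coloured by exon type. The 4 strongest noncoding peaks stand apart at the upper right, with signals of 448 to 836 in replicate 1 and 384 to 670.3 in replicate 2, and coding-exon points gather around 34.9 and 37.2.

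Base composition separated the types in another way. Within 50 bp of the summit, under 40% G or C was found at 128 of 311 exon peaks (41.2%, 35.8 to 46.7) and at 10.6% of the other ranked exon regions (odds ratio 5.88, 4.64 to 7.43, adjusted exact p = 1.11e-42). The types differ in composition, with medians of 54.5% G or C in other coding regions and 38.6% in other 3′ UTR regions, so the share was taken again within each type, a test added after seeing the data. In noncoding exons 61 of 112 peaks had such low values (54.5%) against 23.7% of other regions (odds ratio 3.85, 2.56 to 5.80, adjusted exact p = 6.56e-11), with medians of 38.6 and 46.5% G or C. In 5′ UTRs 16 of 43 did (37.2% against 20.5%, odds ratio 2.30, 1.14 to 4.51, adjusted exact p = 0.0249). No difference passed in 3′ UTRs (62.0% against 54.5%, odds ratio 1.36, 0.845 to 2.24, adjusted exact p = 0.279). In coding exons 2 of 77 peaks were below 40% (2.60% against 2.62%, odds ratio 0.989, 0.117 to 3.71), with medians of 56.4 and 54.5%.

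**Figure D4:**
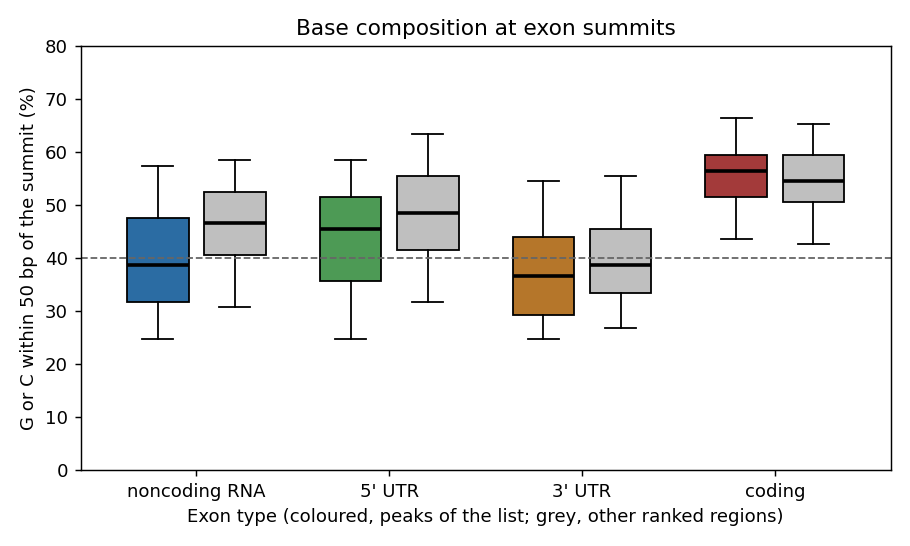
Percentage of G or C in the 101 bases around each summit (vertical axis) for listed peaks (coloured) and other ranked regions (grey) of each exon type; boxes span the quartiles with a line at the median, whiskers the 5th to 95th percentile, and the dashed line marks 40%. The coloured box lies lower than the grey in noncoding exons (medians 38.6 and 46.5%) and not in coding exons (56.4 and 54.5%).

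Of the short DNA words searched, 2 differed between exon peaks and other ranked exon regions. A set of 16 words was searched on both strands within 50 bp of the summit. The words related to leucine zipper sites were TGACGTGG with its part CCACG, the cyclic AMP element TGACGTCA, the shared centre ACGT and the AP-1 site TGACTCA. E-box words were CACGTG and CAGCTG, beside another form spelled CATATG. Words of promoters and of widespread fly factors were the TATA box as TATAAAA, the DREF site TATCGATA and the Motif 1 core GGTCACAC. GAGAG for the GAGA factor and CAGGTAG for Zelda were added, and GTTCGA is part of the internal promoter of transfer RNA genes. GGTATTT and the run TTTTTT completed the set. ACGT lies inside TGACGTGG, inside TGACGTCA and inside CACGTG, so these searches overlap. TGACGTGG, the core that vertebrate ATF6 binds, was at 1 of 311 summits (0.322%) and in 0.228% of other ranked exon regions (odds ratio 1.41, 0.0351 to 8.17, adjusted exact p = 0.635). TGACGTCA was at none, where 3 counts over 311 would be 0.965% and the 95% Wilson interval reaches 1.22%, and in 0.0920% of other regions. TTTTTT was more frequent at the peaks (57 of 311, 18.3% against 5.17%, odds ratio 4.12, adjusted exact p = 2.88e-15), and CCACG was less frequent (34 of 311, 10.9% against 19.9%, odds ratio 0.495, adjusted exact p = 0.000324). The call for CCACG was lost without summits in introns (odds ratio 0.585, adjusted exact p = 0.0513). The other 14 words did not pass the test, with ACGT at 17.7% against 19.3% (odds ratio 0.901, 0.660 to 1.21). When the words were tested within each exon type, added after seeing the data, none of 64 tests passed, and the lowest p was that of TTTTTT in 5′ UTRs (27.9% against 13.5%, exact p = 0.0128, adjusted exact p = 0.817). CCACG lay in 22.4% of other regions in coding exons, 14.4% in 5′ UTRs, 8.32% in 3′ UTRs and 11.5% in noncoding exons. Within these types its odds ratios were 1.13, 0.290, 0.587 and 0.669, so the lower share over all exon peaks was not shown within a type.

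The position of a summit within its gene and on the chromosomes was compared as well. An intron of another transcript also covered 94 exon summits (30.2% against 13.96% of other ranked exon regions, odds ratio 2.67, 2.07 to 3.42, adjusted exact p = 4.04e-13). By type these were 27 of 43 in 5′ UTRs, 11 of 77 in coding exons, 16 of 79 in 3′ UTRs and 40 of 112 in noncoding exons. Coding exons held 24.8% of the peaks and 78.8% of the other regions. The difference was not tested within types, so the mix of types may carry it. An edge of the exon lay within 50 bp of 62 summits (19.9% against 14.7%, odds ratio 1.44, 1.07 to 1.92, adjusted exact p = 0.0157). That call was lost with edges within 25 bp (odds ratio 1.40, adjusted exact p = 0.106). The X chromosome held 51 exon peaks (16.4% against 19.9%, odds ratio 0.788, 0.571 to 1.07, adjusted exact p = 0.134), and its difference did not pass the test. The list of replicate 1 alone gave an odds ratio for the X of 1.03. On the other arms there were 60 exon peaks on 2L, 61 on 2R, 62 on 3L, 76 on 3R and 1 on chromosome 4.

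Weak exon peaks were mostly neighbours of other peaks. The signals left a gap between 39.3 and 48.1, and 26 of 311 lay below it, while 6.47% of the whole list had a signal under 40. Another listed summit lay within 400 bp of 24 of these 26 and of 28 of the other 285. They included RNaseMRP:RNA, which encodes an RNA of ribosomal RNA processing, with 2.71 beside a second peak of 90.4, and RpS23 with 6.87. How the authors split a region into several peaks is not given in the sources used here.

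Of the genes listed for the protein-folding response and for other functions, few had an exon peak. Of 25 genes of ER stress and secretion, 1 had one, SREBP, whose product is a membrane-bound transcription factor of lipid synthesis that, in mammals, is released by the same proteases as ATF6. Genes of chromatin and insulator proteins had none of 17 and those of embryonic patterning none of 21. Neural genes had 1 of 9 (elav, an RNA-binding protein of neurons, 3′ UTR, 74.3, in replicate 2 alone) and muscle genes 1 of 8 (Mhc, muscle myosin heavy chain, 3′ UTR, 68.7, in neither list). Of 85 cytosolic ribosomal protein genes 2 had one, among them RpS23 in the 3′ UTR (6.87, in both lists). RpS23 was among the 10 peaks in 3′ UTRs with signal under 40, and 9 of those 10 had another listed summit within 400 bp. Its support may therefore be shared with a neighbouring peak. The counts for the gene lists stand beside 184 of all 13968 protein-coding genes (1.32%) and were not tested. Promoter peaks of the same genes are outside the rule.

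Of the genes with exon peaks, 35 had 2 or more, among them 28 with 2, 6 with 3 and lncRNA:CR43334 with 9. Those with 3 were lncRNA:CR43126 (68.3 to 97.3, all in neither list), lncRNA:CR44603 (61.5 to 247), lncRNA:CR43650 (6.57 to 244), 14-3-3zeta (4.55 to 86.0, all in its 3′ UTR), Glut4EF and lola. Among the genes with 2, both peaks were in both replicates' lists for lncRNA:CR44619, lncRNA:CR45048, baz, stas and CG33307. In lncRNA:CR45048, stas and CG33307 the second peak was weak (4.53, 14.7 and 18.9) and lay 217, 199 and 205 bp from another listed summit, so the same replicate peak may support both. Other genes also reached 2 or more through a peak with signal under 40, such as Rac2 (2.12), lncRNA:CR42839 (6.70) and Utx (13.3). Of the 26 exon peaks under 40, 24 had another listed summit within 400 bp. Whether the peaks of a gene are separate sites was not tested.

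The distance of 500 bp fell inside a continuous range. The exon peaks just within it, left out by the rule, were in lncRNA:CR45618 (498 bp from a TSS, signal 280.4), Fbl6 (491 bp, 369) and JIL-1 (486 bp, 91.9). The first beyond it were BTBD9 (502 bp, 98.9), CG14410 (504 bp, 48.1) and Hsp22, a small heat shock protein gene (508 bp, 124). Among ranked exon regions outside the list, the strongest were at spen (466 and 283) and lncRNA:Hsromega (193). Their IDR score was 1000, beside a lowest score of 830 in the list. Of the regions below that score the strongest were in Mef2 (128), Unr (107) and lncRNA:CR43334 (105).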

How the data were processed

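Per the labels, chromatin of Atf6-eGFP embryos (0 to 24 h, 2 biological replicates) was sheared to a size range of 200 to 800 (no unit given) and precipitated with anti-GFP. The authors deposited peak lists on dm6, thresholded and ranked by the irreproducible discovery rate (IDR), for both replicates together, for a conservative list and for each replicate. The values used are the authors' deposited signal score and IDR score. No aligner or peak caller is named in the sources used here. The thresholded lists held 5846, 4884, 4249 and 3424 peaks, and the ranked list 105892 regions, 105559 of them on the main arms.

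Exons and TSSs came from the Ensembl release 115 annotation of BDGP6.54, the same assembly as dm6, without transposable elements. Members and lists were chosen with earlier results of these data known. Shares were compared by two-sided Fisher exact tests with conditional odds ratios, adjusted by Benjamini-Hochberg within each family (4 types, 5 features, 16 words, replicate and signal shares) at 0.05, and intervals for shares are 95% Wilson intervals. They cover counting error over peaks, which are not replicates. Tests were checked on simulated windows. The genes named are the 15 strongest members, the 5 strongest of each type, members of the gene lists, those at the edges of the rule, genes with 2 or more members and members with the ATF6 core. The 1 member with that core and a few others that the rule names are counted and not reported here. The microRNA hosts and hth were named after their values were seen. Alternatives covered promoter distance, exon definition, list, window, background and leaving out a replicate. Tests ran in SciPy 1.17.1 under Python 3.11.15, tables in pandas 2.3.3 with numpy 2.4.6, and figures in matplotlib 3.10.9.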

Additional observations from a re-analysis of the deposited data

How the results depend on the processing

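The shares of coding, 3′ UTR and noncoding exons, of low G or C, of summits also in an intron and of summits near a noncoding start, and the word TTTTTT, kept their direction and their call under each of the 11 to 16 alternatives run for them. The tests within exon types are not among these alternatives. There low G or C passed in noncoding exons and 5′ UTRs only, and TTTTTT passed in no type. Nearness to a noncoding start, tested in noncoding exons alone, did not pass, and overlap with introns was not tested. Odds ratios ran from 0.0167 to 0.120 for coding exons, 4.35 to 19.4 for noncoding exons and 4.70 to 20.5 for low G or C. With promoters out to 1000 bp the 5′ UTR odds ratio was 1.38 and that of the X 0.679, now past the threshold (adjusted exact p = 0.0495). The share near an exon edge lost its call with start sites of all genes (1.22), without summits in introns (1.31) and with 25 bp edges (1.40). In the stronger 50% of the list by signal there were 103 members, and the odds ratios were 1.22 for the X, 0.686 for support in both replicates and 1.02 for signal above the median, which was that of the smaller list. Support in both replicates and signal above the median lost their calls there (adjusted exact p = 0.172 and 0.919). Leaving out a replicate gave 156 to 159 members, odds ratios of 0.728 to 1.03 for the X, 0.328 to 0.884 for support in the other replicate and 0.697 to 0.941 for high signal, and 2 to 4 words called. The number of words called was 1 without summits in introns, where CCACG (odds ratio 0.585) lost its call, and 4 with the conservative list or with windows of 25 or 100 bp. TGACGTGG had odds ratios of 0 with start sites of all genes, in the stronger 50% and without either replicate, and 0.729 within 100 bp. ACGT reached 1.08 and TGACGTCA 2.07 within 100 bp, and TGACGTCA 15.3 without replicate 1 (0 without replicate 2), none past the threshold. Where not stated otherwise, the cause was not tested. Read depth is unknown, so no interval covers it.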
